A study of Triticum aestivum with 6 samples.

Results

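Aleurone transcripts that peaked at 9 days post anthesis (DPA) were taken from 6 RNA-seq libraries of developing bread wheat (Triticum aestivum) grain, cultivar Banks. A transcript sequence was included when it reached at least 20 RPKM and at least 50 total reads in 9 DPA aleurone, and when its RPKM there was at least 4 times that in each of the other 5 libraries. RPKM is the read count scaled to the length of the sequence and to the total of the library. Of the 221925 sequences in the files, 11677 passed the 2 minimums in 9 DPA aleurone, and 287 of these met the fold condition as well. The 6 libraries were aleurone at 6, 9 and 14 DPA and starchy endosperm at 6, 9 and 14 DPA, all from microdissected seed tissue, with no treatment named in the labels. A preparation was a pool of 5 or more seeds, drawn from 3 spikes on 3 plants, and each tissue and stage had 1 library, so no replicate error and no p-value can be given for any value below. The members were selected on the RPKM and total reads of all 6 libraries, so their height in 9 DPA aleurone is a description of how they were chosen.

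The aleurone is the outermost cell layer or layers of the cereal endosperm. Its cells take on their identity while the endosperm is still young, fill with protein bodies and oil, stay alive in the mature grain, and secrete hydrolytic enzymes at germination. The starchy endosperm beneath it arises from the same fertilisation product, accumulates starch and gluten proteins, and dies as the grain matures. The files pair the identifiers with no gene name, function or position, and 0 of the 221925 matched the RefSeq gene table of wheat (assembly IWGSC CS RefSeq v2.1). The tissue labels were therefore not checked against marker genes. No role is given to any sequence below. A sequence is not a gene, since several sequences can stand for 1 gene or for its near-identical copies on the related wheat genomes.

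The 9 DPA libraries were the shallowest, with a total of 4549034 reads for aleurone and 4104682 for starchy endosperm. The other 4 held between 27150859 and 37911327. A sequence listed with 0 reads can have an expected count of up to 3. For a sequence of 1000 bases this is a level of up to 0.659 RPKM in 9 DPA aleurone, 0.731 RPKM in 9 DPA starchy endosperm and at most 0.110 RPKM in the other libraries. A sequence with no reads at 9 DPA was thus less well bounded than one with no reads at 6 or 14 DPA. Intervals and limits below cover counting error only, as copies made by PCR were not told apart.

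The 287 sequences were a small set in 9 DPA aleurone, where the other sequences past the minimums held 67.8% of the total reads. The members made up 0.732% of the total reads of 6 DPA aleurone, 4.17% of those of 9 DPA aleurone (exact 95% interval 4.15 to 4.19) and 0.0864% of those of 14 DPA aleurone. Their share in starchy endosperm was 0.0518% at 6 DPA, 0.0596% at 9 DPA and 0.0305% at 14 DPA. Their median level in aleurone was 5.70 RPKM at 6 DPA, 52.2 RPKM at 9 DPA and 1.27 RPKM at 14 DPA. In starchy endosperm the medians were 0.859, 1.38 and 0.231 RPKM at the same stages. The other 11390 sequences past the minimums had medians of 38.3 RPKM in aleurone at 6 DPA, 39.5 RPKM at 9 DPA and 23.05 RPKM at 14 DPA. These medians differed little between 6 and 9 DPA, though 5930 of the others (52.1%) were higher at 9 DPA than at both other aleurone stages. The step up in the members is what the rule selects for. In bulk tissue, fewer cells of a type and less RNA per cell cannot be told apart.

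**Figure D1:**
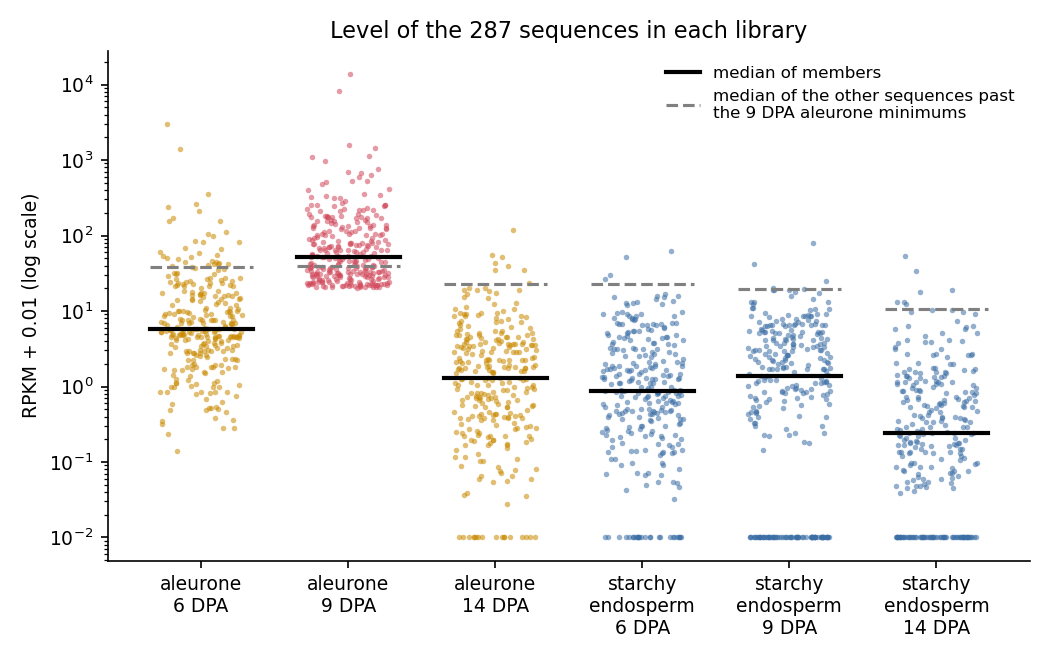
Each point is 1 of the 287 sequences, in the library named below the axis; the vertical axis is RPKM plus 0.01 on a log scale, so that sequences with no reads sit at the bottom. Black bars mark the members' medians, 52.2 RPKM in 9 DPA aleurone and between 0.231 and 5.70 RPKM in the other libraries; grey dashes mark the medians of the 11390 other sequences past the minimums.

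No member was silent in 6 DPA aleurone, where the lowest had 0.130 RPKM and only 3 had 3 reads or fewer. In 14 DPA aleurone 17 members had no reads and 42 had 3 reads or fewer. Within starchy endosperm, reads were lacking for 27 members at 6 DPA, 77 at 9 DPA and 70 at 14 DPA, and 17 had none in any of the 3 libraries. The 9 DPA library was far shallower than the others, so these counts cannot be compared between stages. They were not set beside counts for the other sequences. There were 47 members (16.4%) with 3 reads or fewer in each starchy endosperm library, against 169 (1.48%) of the other sequences past the minimums. The rule bounds the starchy endosperm levels of the members, so a higher share among them follows in part from the choice.

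Most of the reads came from a few members. The highest 2 supplied 39.9% of the 189618 member reads in 9 DPA aleurone, the highest 10 supplied 58.8% and the highest 50 supplied 77.9%. There were 6 members at 1000 RPKM or more, 89 at 100 RPKM or more, and 139 between 20 and 50 RPKM. Without the highest 2, the remaining members made up 0.401% of the 6 DPA, 2.50% of the 9 DPA and 0.0859% of the 14 DPA aleurone library. The rule holds each member at least 4-fold lower at 6 and 14 DPA, so lower shares there follow from the choice.

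TC371473 (806 bases) was the most abundant member. Its level in aleurone was 2976 RPKM at 6 DPA, 13819 RPKM at 9 DPA and 4.81 RPKM at 14 DPA, and in starchy endosperm it was 12.8, 0.907 and 0.066 RPKM at these stages. It stood 4.64 times higher in 9 DPA aleurone than in 6 DPA aleurone (exact 95% interval 4.59 to 4.70). It was thus already abundant at 6 DPA and nearly gone from the aleurone library of 14 DPA. GH731202 (666 bases) had the same course, with 1379, 8278 and 0.951 RPKM in aleurone and 6.68, 1.83 and 0 RPKM in starchy endosperm. Its level was 6.00 times that of 6 DPA aleurone (interval 5.90 to 6.11). TC428791 (849 bases) was lower at 6 DPA relative to its peak, with 112.3, 1562 and 0.186 RPKM in aleurone and 0.732, 1.15 and 0 RPKM in starchy endosperm. The ratio of 9 to 6 DPA in aleurone was 13.9 for this sequence (interval 13.3 to 14.6). In all 3 sequences each aleurone library of 6 and 9 DPA was above every starchy endosperm library, while the 14 DPA aleurone library lay within the range of the starchy endosperm libraries.

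Some members had reads that were nearly all unique, that is, counted by the authors at a single sequence. Like all members, they peaked in 9 DPA aleurone by the rule. TC404078 (703 bases) was the most abundant of them, with 2419 of its 2450 reads in 9 DPA aleurone unique. It had 172.7, 766 and 1.80 RPKM in aleurone at 6, 9 and 14 DPA and 1.30, 0.693 and 0.038 RPKM in starchy endosperm. The next was BQ902685, a short sequence of 152 bases with 187 of 189 reads unique. It had 40.95, 273 and 15.3 RPKM in aleurone and 4.09, 4.81 and 0.351 RPKM in starchy endosperm. All 3 aleurone libraries of BQ902685 were above its starchy endosperm libraries.

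With counts under 3 set at 3 reads, the members with the largest ratios were less abundant than these. CA648674 (498 bases) had 1.70 RPKM in 6 DPA aleurone, 98.4 RPKM in 9 DPA aleurone and 0.212 RPKM in 14 DPA aleurone, with no reads in starchy endosperm, and stood 57.9 times above its second highest library (interval 37.6 to 93.2). CA667822 (267 bases) had 2.62, 154.8 and 0.395 RPKM in aleurone and a single read in starchy endosperm. TC383873 (1485 bases) had 0.843, 46.04 and 0.018 RPKM in aleurone, with 1 read in 6 DPA starchy endosperm and none at 9 or 14 DPA. Each of the 3 was second highest in 6 DPA aleurone, and the ratio of TC383873 had an interval of 38.2 to 80.3. Only 24 of the 223 reads of CA648674 in 9 DPA aleurone were unique, against 138 of 188 for CA667822 and 71 of 311 for TC383873. On the deposited RPKM, 8 other members had larger ratios than CA648674, from 61.3 to 95.6, and all 8 had at most 1 read in 9 DPA starchy endosperm and at most 11 reads in the second highest library.

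**Figure D2:**
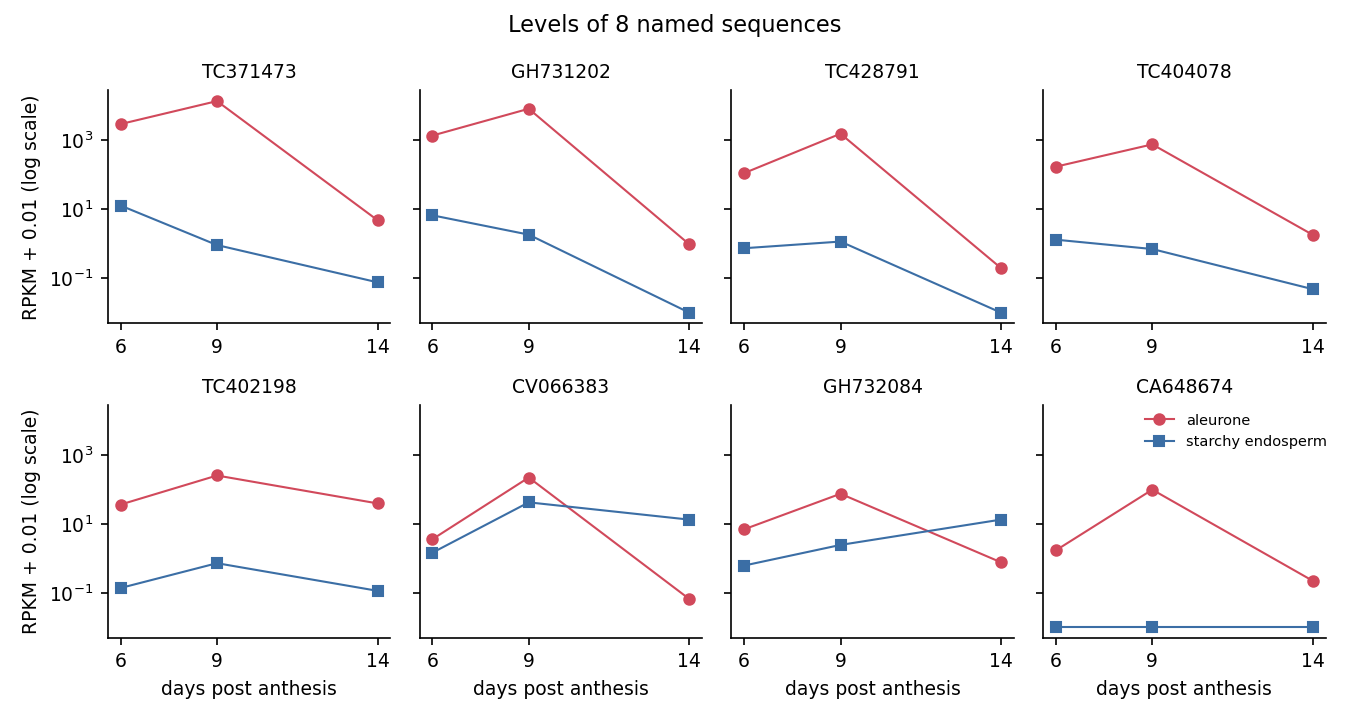
Levels of 8 members against days post anthesis, as RPKM plus 0.01 on a log scale, with red circles for aleurone and blue squares for starchy endosperm; each marker is 1 library and the lines join the stages of a tissue. All 8 were highest in 9 DPA aleurone, but TC402198 was still at 39.3 RPKM in aleurone at 14 DPA, CV066383 reached 42.1 RPKM in 9 DPA starchy endosperm, and GH732084 was higher in starchy endosperm than in aleurone at 14 DPA.

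The fold over the second highest library was modest for most members. It was between 4 and 5 for 98 members, between 5 and 8 for 100, between 8 and 16 for 47, and 16 or more for 42, with a median of 6.00. The medians against single libraries, with counts under 3 set at 3 reads, were 6.92 for 6 DPA aleurone, 51.8 for 14 DPA aleurone, 67.2 for 6 DPA starchy endosperm, 23.4 for 9 DPA starchy endosperm and 173.1 for 14 DPA starchy endosperm. The 6 DPA aleurone library was thus the one that bounded the set. Without the requirement on it, 1985 sequences met the rule. Over all sequences, differences of this size were common against some libraries and rare against others. Where the higher library had 50 reads or more, 9 DPA aleurone exceeded 9 DPA starchy endosperm at least 4-fold for 23.9% of sequences, 14 DPA aleurone for 8.87% and 6 DPA aleurone for 1.82%. All 287 members were in these 3 groups by choice, and nothing is read from it.

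At the threshold, members and other sequences ran into each other. The member nearest to it was CA710191 (486 bases), with 98.7, 396.7 and 1.03 RPKM in aleurone at 6, 9 and 14 DPA and 1.68, 1.003 and 0.055 RPKM in starchy endosperm, a ratio of 4.02 to 6 DPA aleurone. The nearest sequence left out was TC448110 (580 bases), with 56.4, 225.1 and 2.23 RPKM in aleurone and 28.2, 25.6 and 6.67 RPKM in starchy endosperm, a ratio of 3.99. A further 190 sequences past the minimums had ratios between 3 and 4. For 188 of the 287 members the lower exact 95% limit of the ratio was at least 4 against every other library, and for the other 99 it was under 4 against at least 1 library.

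**Figure D3:**
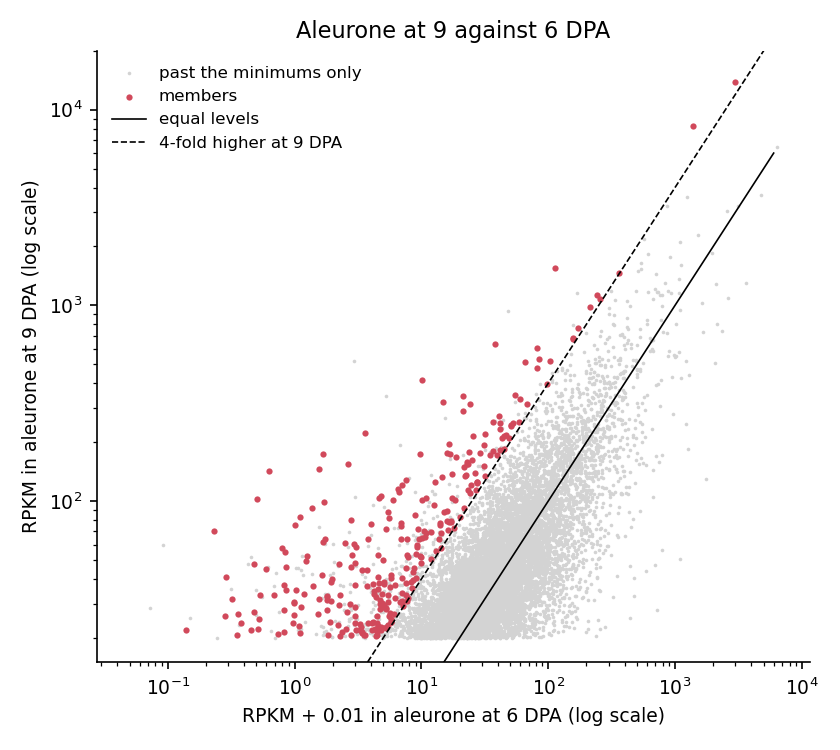
RPKM in 9 DPA aleurone against RPKM plus 0.01 in 6 DPA aleurone, both on log scales, for the 11677 sequences past the minimums, with the 287 members in red. The members lie on or to the left of the dashed line of a 4-fold difference; many sit close to it, and grey points left of the line are sequences held back by another library.

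The rule fixes the highest library and leaves the order of the other 5 free. The second highest was 6 DPA aleurone for 199 members (69.3%), 9 DPA starchy endosperm for 55 (19.2%), 14 DPA aleurone for 19 (6.62%), 6 DPA starchy endosperm for 12 (4.18%) and 14 DPA starchy endosperm for 2 (0.697%). Of the other sequences past the minimums, 50.3%, 16.1%, 12.0%, 18.6% and 3.03% had these libraries as the highest of the 5. The members with 6 DPA aleurone second were the more abundant, with a median of 59.99 RPKM in 9 DPA aleurone, and held 91.05% of the member reads there. Their medians were 7.78 RPKM in 6 DPA aleurone, 1.10 RPKM in 14 DPA aleurone and 0.120 to 0.743 RPKM in starchy endosperm. By the rule and the definition of the class, these members were highest in the 2 early aleurone libraries. Their median in the 14 DPA aleurone library was low.

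The 19 members with 14 DPA aleurone second kept an aleurone level after the peak. Their medians in aleurone were 5.03 RPKM at 6 DPA, 40.6 RPKM at 9 DPA and 8.44 RPKM at 14 DPA, and in starchy endosperm 3.13, 1.22 and 0.713 RPKM. The most abundant was TC402198 (1025 bases), with 36.4, 253.5 and 39.3 RPKM in aleurone and 0.128, 0.713 and 0.104 RPKM in starchy endosperm. All its aleurone libraries were far above all its starchy endosperm libraries, with 3 or 4 reads in each starchy endosperm library. Of the 12 members with 6 DPA starchy endosperm second, the most abundant was BF478812 (336 bases). It had 17.3, 137.4 and 12.95 RPKM in aleurone and 29.8, 24.7 and 2.698 RPKM in starchy endosperm, so that apart from the 9 DPA aleurone library the tissues overlapped. Of the 2 members with 14 DPA starchy endosperm second, GH732084 (699 bases) was the more abundant. It had 6.96, 74.8 and 0.755 RPKM in aleurone and 0.608, 2.44 and 13.3 RPKM in starchy endosperm, so that aleurone was the higher tissue at 6 and 9 DPA and starchy endosperm at 14 DPA.

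The 55 members with 9 DPA starchy endosperm second were less abundant and rested on fewer reads. Their median in 9 DPA aleurone was 37.4 RPKM and that in 9 DPA starchy endosperm 6.23 RPKM, while the medians in the other 4 libraries lay between 0.383 and 1.62 RPKM. By the definition of the class, all 55 were higher at 9 DPA than at 6 or 14 DPA in starchy endosperm too. Their reads in 9 DPA starchy endosperm ranged from 1 to 82 with a median of 15. The lower limit of the ratio between the 9 DPA tissues was at least 4 for 28 of the 55. The most abundant was CV066383 (474 bases), with 3.57, 221.7 and 0.056 RPKM in aleurone and 1.45, 42.1 and 13.3 RPKM in starchy endosperm. It had 478 reads in 9 DPA aleurone and 1 in 14 DPA aleurone, and stood 5.26 times above 9 DPA starchy endosperm (interval 4.15 to 6.73). For CV066383 the starchy endosperm libraries of 9 and 14 DPA were both above the aleurone libraries of 6 and 14 DPA.

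Comparisons that leave out 9 DPA aleurone were made to see how the members behaved elsewhere. A member counted as apart when the higher library had at least 50 reads and the RPKM ratio was at least 4, with counts under 3 set at 3 reads. The rule caps the levels in these libraries and does not set their direction, and the values are given as a description. At 6 DPA, 212 members had enough reads in the higher tissue. Of these, 134 were higher in aleurone than in starchy endosperm by this measure and 0 were lower. Over all 56730 sequences with enough reads the shares were 16.9% higher and 10.5% lower. Of the 11390 other sequences past the 9 DPA aleurone minimums, 23.6% were higher and 2.68% lower, against 46.7% and 0% of the 287 members. The median log2 ratio of aleurone to starchy endosperm was 2.29 over all 287 members, 0.61 over the other sequences past the minimums and 0.24 over all sequences with enough reads. Scaling by the trimmed mean of M-values (TMM) shifts all log2 ratios of this comparison by -0.20 and gave 128 members higher and 0 lower. The remaining 75 members had too few reads for a comparison.

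At 14 DPA fewer members had enough reads for a comparison. There were 121, with 75 higher in aleurone than in starchy endosperm and 8 lower. Over all 57919 sequences with enough reads, 25.9% were higher and 6.87% lower. TMM, which shifts all log2 ratios at this stage by -0.69, gave 59 higher and 12 lower. Among all sequences at least 4-fold apart, the share higher in aleurone was 62.8% with TMM and 79.1% with library totals. Of the members with enough reads, 62.0% were higher in 14 DPA aleurone, against 26.2% of the 10706 other sequences past the minimums with enough reads; at 6 DPA these shares were 63.2% and 23.7%. Over all 287 members, 166 of them with too few reads at 14 DPA, the share was 26.1%, against 24.6% of all 11390 others. A member of low level passes the read minimum only through the tissue where it is the higher, so the share among those with enough reads is not one of all members. The median log2 ratios were 1.42 over the members, 1.07 over the other sequences and 0.90 over all with enough reads. There were 42 members (14.6%) higher in aleurone at both 6 and 14 DPA, against 11.5% of the other sequences past the minimums. Another 90 (31.4%) were higher in aleurone at 6 DPA with no 4-fold difference counted at 14 DPA, against 11.6% of the others, and 33 (11.5%) were the reverse, against 12.8%. The first and the last of these shares lay near those of the others. No 4-fold difference was counted at either stage for 114 members (39.7%), against 59.9% of the others.

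Between 6 and 14 DPA most members, but not all, fell in aleurone. Of 217 with enough reads, 123 were at least 4-fold lower in 14 DPA than in 6 DPA aleurone and 0 were at least 4-fold higher. Over all 60571 sequences with enough reads the shares were 13.6% lower and 12.3% higher, and of the other sequences past the minimums 19.2% were lower and 1.76% higher. On the RPKM scale 255 of the 287 members (88.85%) were higher at 6 than at 14 DPA in aleurone, by any margin. The same held for 8542 (74.996%) of the other sequences past the minimums, so most of these fell too. The median log2 ratio of 14 to 6 DPA was -2.12 over the members, -0.70 over the other sequences and -0.14 over all with enough reads. TMM, a shift of 0.13, gave 116 lower and 0 higher.

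In starchy endosperm most members had too few reads to compare, and the counts against 9 DPA turned with the read minimum. Of 62 members with enough reads, 1 was at least 4-fold higher in 9 than in 6 DPA starchy endosperm and 14 were lower, against 4.63% and 17.6% of all sequences with enough reads. In the shallow 9 DPA library 50 reads stand for a higher level than in the others. With a minimum of 10 reads, 140 members could be compared, with 31 higher and 14 lower at 9 DPA, against 10.6% and 10.7% of all sequences with as many reads. TMM, a shift of -0.13, gave 1 higher and 15 lower at the 50-read minimum. The median log2 ratio of 9 to 6 DPA was 1.22 over the members, -0.19 over the other sequences past the minimums and -0.76 over all with 50 reads. For 126 members with under 3 reads in 9 DPA starchy endosperm it was computed at 3 reads. On the deposited RPKM, 127 members (44.3%) were higher at 9 than at 6 DPA by any margin, against 39.6% of the others.

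Between 14 and 9 DPA in starchy endosperm, 24 members had enough reads, with 4 higher and 1 lower at 14 DPA, and the backgrounds were 9.68% and 10.3%. With a minimum of 10 reads the direction was the opposite, with 4 higher and 49 lower of 102 members, against backgrounds of 5.1% and 18.7%. The median log2 ratio of 14 to 9 DPA was -3.19 over the members, -0.96 over the other sequences and 0.24 over all with 50 reads, with the same 126 members computed at 3 reads in the 9 DPA library. On the deposited RPKM, 180 members (62.7%) were higher at 9 than at 14 DPA, against 72.6% of the others. The direction of these 9 DPA comparisons in starchy endosperm was thus not settled at this depth.

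Between 14 and 6 DPA in starchy endosperm, 93 members had enough reads, with 6 higher and 47 lower at 14 DPA, against backgrounds of 6.67% and 23.9%. The other 194 members had too few reads. Over all 287 members 2.09% were higher and 16.4% lower, against 1.71% and 24.9% of all 11390 other sequences past the minimums. The share lower was thus above the background among members with enough reads and below that of the others over all members. The median log2 ratios were -1.09 over the members, -1.10 over the other sequences and -0.71 over all with enough reads. TMM moves the log2 ratios of 14 DPA starchy endosperm up by 0.75 against 9 DPA and by 0.62 against 6 DPA. It gave 8 higher and 1 lower against 9 DPA and 9 higher and 35 lower against 6 DPA. Over all sequences the share of 4-fold differences that were higher at 14 DPA was 82.4% with TMM and 48.4% with library totals in the comparison with 9 DPA, and 40.2% and 21.8% in that with 6 DPA.

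**Figure D4:**
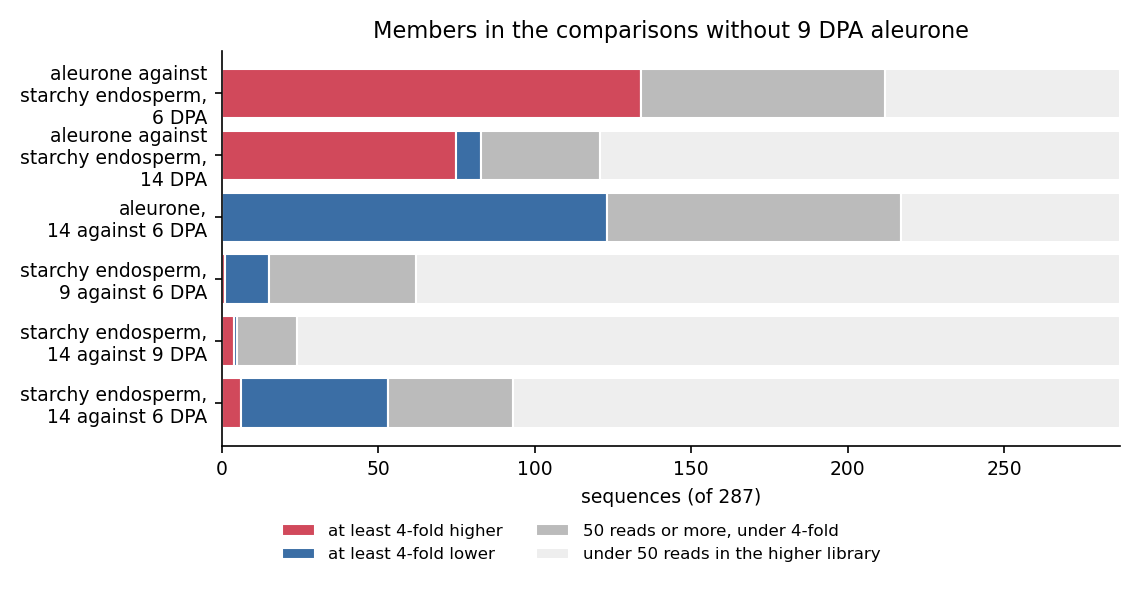
Number of the 287 members at least 4-fold higher (red), at least 4-fold lower (blue), less than 4-fold apart (dark grey) or with under 50 reads in the higher library (light grey) in the first-named library of each of 6 comparisons. At 6 DPA, 134 members were higher in aleurone and 0 lower, 123 were lower in 14 than in 6 DPA aleurone, and in the starchy endosperm comparisons most members had too few reads.

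With a lower read minimum, some members were also highest at 9 DPA within starchy endosperm. With at least 10 reads in 9 DPA starchy endosperm, a minimum chosen after the values were seen, 84 members could be looked at, and 25 of these were at least 4-fold higher at 9 DPA than at both 6 and 14 DPA in that tissue. That is 29.8% of the 84, against 1.90% of the 9503 other sequences past the aleurone minimums with as many reads. Over all 287 members the share was 8.71%, against 1.59% of all 11390 others. Only 29.3% of the members had those 10 reads, against 83.4% of the others. A member of low level passes this minimum only through a high 9 DPA value, and the rule caps its 6 and 14 DPA levels. The contrast thus follows in part from the choice. The medians of the 25 were 0.481 RPKM at 6 DPA, 7.396 RPKM at 9 DPA and 0.341 RPKM at 14 DPA in starchy endosperm, and 1.54, 47.8 and 1.29 RPKM in aleurone. These medians follow from how the 25 were picked and nothing is read from them. On unique reads only 5 of the 25 had 10 reads or more in 9 DPA starchy endosperm, and all 5 had the 4-fold difference there. Unique reads are part of the total reads by which the 25 were picked, so this is no independent check.

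The members differed from the other sequences past the minimums in how their reads were assigned. The median share of total reads counted as unique in 9 DPA aleurone was 24.0% for the members and 40.1% for the others. No unique read in 9 DPA aleurone was counted for 30 members (10.5%), against 82 of the others (0.720%), and 85 members (29.6%) had under 10% unique reads, against 9.20% of the others. At the upper end the shares were close, with 90% or more unique reads for 30 members (10.5%) and for 10.7% of the others. Of the 30 members with no unique read in 9 DPA aleurone, 17 had none in any library. The most abundant of the 30 had 343.5 RPKM and their median was 33.4 RPKM.

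Low unique shares were unevenly spread among the members. Under 10% of reads were unique in 28 of the 55 members with 9 DPA starchy endosperm second and in 49 of the 199 with 6 DPA aleurone second, and the median unique shares were 5.56% and 28.3%. Of the 25 members that were also 4-fold higher at 9 DPA in starchy endosperm, 12 had under 10% unique reads, and 6 had an identifier that begins with TC. Of the 181 other sequences past the minimums with the same difference in starchy endosperm, 53 (29.3%) had under 10% unique reads. The median unique shares were 11.9% for the 25 and 24.8% for the 181. The sources used here do not say how reads that match several sequences were shared out, and the part of this in the levels was not tested.

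**Figure D5:**
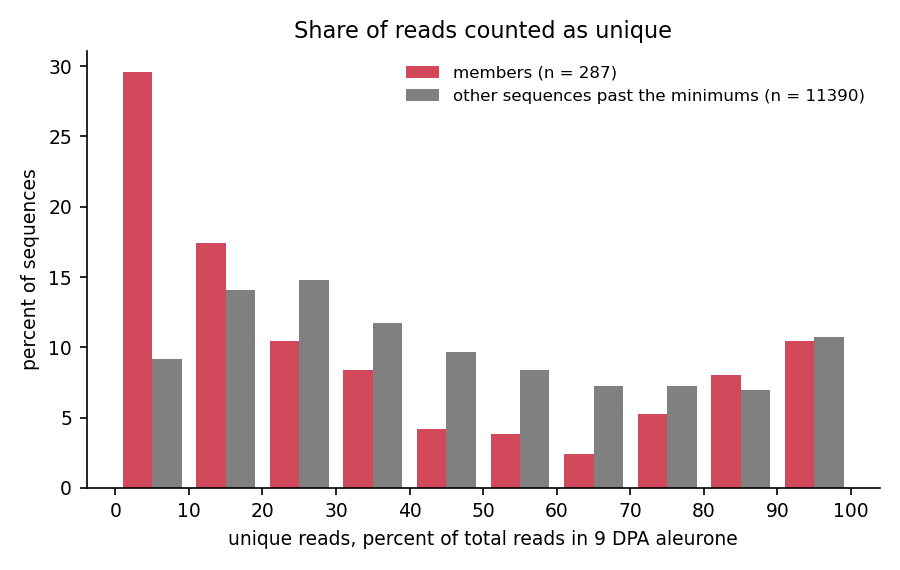
Percent of sequences in each class of unique share, from 0 to 100% of the total reads in 9 DPA aleurone, with red bars for the 287 members and grey bars for the 11390 other sequences past the minimums. The class under 10% holds 29.6% of the members and 9.20% of the others, and the class from 90% up holds 10.5% and 10.7%.

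Most members with enough unique reads showed the pattern on these as well. Among the members, 136 had at least 50 unique reads in 9 DPA aleurone. On unique reads, with counts under 3 set at 3, the 9 DPA aleurone library was the highest for all 136, and it was at least 4 times the second highest for 117. The median ratio was 6.03 on unique reads and 5.75 on total reads for these 136. The lowest ratio on unique reads was 1.74. Unique reads are part of the total reads, so this is no independent check.

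The members were shorter sequences and more often of the kind whose identifier does not begin with TC. Their median length was 637 bases, against 807 bases for the others past the minimums and 644 bases for all sequences. TC identifiers made up 49.1% of the members, 82.3% of the others and 42.1% of all sequences. The 141 TC members had a median length of 811 bases, a median unique share of 30.5% and 68.3% of the member reads in 9 DPA aleurone. The 146 other members had medians of 543 bases and 15.4% unique and held 31.7% of the reads. The members and the others had similar numbers of reads in 9 DPA aleurone, with medians of 150 and 155.

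The same rule with another library as the highest gave sets of different size. The numbers past the 2 minimums in the highest library differed too, and shares of these are given. The rule was met by 287 of 11677 sequences (2.46%) in 9 DPA aleurone and 233 of 9826 (2.37%) in 9 DPA starchy endosperm. It was met by 123 of 13055 (0.942%) in 6 DPA aleurone and 1068 of 11256 (9.49%) in 14 DPA aleurone. In starchy endosperm it was met by 540 of 11616 (4.65%) at 6 DPA and 400 of 6954 (5.75%) at 14 DPA. TC identifiers made up 51.5% of the sequences peaking in 9 DPA starchy endosperm, and 34 of them (14.6%) had no unique read in that library. In the sets of the 6 and 14 DPA libraries, TC identifiers made up between 68.3% and 78.7%, and at most 0.750% had no unique read. Low unique shares were not limited to the 9 DPA sets. The median share was 26.0% for the sequences peaking in 9 DPA starchy endosperm and 18.7% for those peaking in 14 DPA starchy endosperm, and under 10% of reads were unique for 36.5% and 41% of them. In the remaining 3 sets the medians lay between 52.6% and 92.5%, and between 6.67% and 17.1% of the sequences had under 10% unique reads. The 9 DPA libraries were also the shallowest, and the part of depth in these differences was not tested.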

How the data were processed

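Per the labels' protocols, cDNA was made by linear amplification with a primer holding a restriction site, by which the poly(A) stretch was taken off, and libraries had 15 PCR cycles. The authors deposited, for each sequence and library, the count of total reads, the count of unique reads and an RPKM value, and RPKM recomputed here differed from the deposited one by at most 5e-04. The aligner used by the authors is not stated in the sources used here, nor is the version of the sequence set. The deposited RPKM and total counts were used throughout. TMM factors came from edgeR 4.0.16 (R 4.3.3) on the sequences that had 10 reads or more in 3 or more libraries. Intervals are exact (Clopper-Pearson, 95%) on the 2 libraries' counts (scipy 1.17.1). The rule was tested on simulated counts. These held counting error only, so they check how the rule was applied and not whether the members would recur in replicate libraries. No test between groups was run, since each group had 1 library.

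The members and lists were chosen with earlier results of these data known. Sequences named are the 3 most abundant members, the 3 with the largest ratio, the most abundant for each second highest library, the nearest inside and outside the fold threshold and the 2 most abundant with 90% unique reads. Alternatives changed the scaling, the reads counted, depth, each threshold and each library required.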

Additional observations from a re-analysis of the deposited data

Results flagged for a closer look

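There were 2 members with a 4-fold or larger excess in aleurone at 6 DPA and one in starchy endosperm at 14 DPA, and 0 with the opposite pair. The 2 are 0.697% of the members, near the 0.465% (53) of the other sequences past the minimums with this pair, and 35 of those others had the opposite pair. They stood out because the libraries of the 2 stages ran in opposite directions between the tissues. With 1 library per tissue and stage the difference was not tested. TC441231 (950 bases) had 60.1, 332.3 and 2.64 RPKM in aleurone at 6, 9 and 14 DPA and 0.895, 9.49 and 54.1 RPKM in starchy endosperm. GH732084, described above as second highest in 14 DPA starchy endosperm, was the other.

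There were 3 members at least 4-fold apart between 14 and 6 DPA in opposite directions in the tissues, all lower at 14 DPA in aleurone and higher at 14 DPA in starchy endosperm. They are 1.045% of the members, against 0.465% (53) of the other sequences past the minimums, of which a further 28 ran the other way. Besides TC441231 and GH732084, the third was TC370343 (872 bases), with 9.29, 58.5 and 1.81 RPKM in aleurone and 1.16, 0.838 and 6.36 RPKM in starchy endosperm. This difference was not tested either. By comparison, 16 members (5.57%) and 683 of the others (6.00%) were at least 4-fold lower at 14 than at 6 DPA in both tissues. These 3 sequences were named after their values were seen. Of their reads in 9 DPA aleurone, 506 of 1436 were unique for TC441231, 160 of 238 for GH732084 and 64 of 232 for TC370343.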

How the results depend on the processing

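The number of sequences meeting the rule (287) came to 170 on unique reads (115 of them among the 287), 89 at 8-fold, 478 at 3-fold, 148 with an RPKM minimum of 50 and 1985 with no requirement on 6 DPA aleurone. It was between 192 and 377 under the other 9 alternatives, and all 240 sequences under TMM and 254 of the 280 at equal depth (4104682 reads) were among the 287. On unique reads 11.1% of members had 9 DPA starchy endosperm second, and 14 DPA starchy endosperm was second for 2.79% both on unique reads and with TMM. The unique-read shares are of all 287 members. Not all of them could be ranked, among them the 17 with no unique read in any library. With unique reads, 42 members were 4-fold higher in aleurone than in starchy endosperm at 14 DPA, 79 lower in 14 than in 6 DPA aleurone, 3 lower in 9 than in 6 DPA starchy endosperm, 0 lower in 14 than in 9 DPA and 22 lower in 14 than in 6 DPA starchy endosperm. With a minimum of 10 reads, 115 were higher in aleurone at 14 DPA, 2 higher in 14 than in 6 DPA aleurone, 31 higher in 9 than in 6 DPA starchy endosperm, 49 lower in 14 than in 9 DPA and 97 lower in 14 than in 6 DPA starchy endosperm. With TMM, 8 were higher in 14 than in 9 DPA starchy endosperm. On unique reads the members held 0.618%, 3.74% and 0.0688% of reads in aleurone at 6, 9 and 14 DPA and 0.0383%, 0.0453% and 0.0288% in starchy endosperm. Fewer unique than total reads pass a fixed minimum; the cause of the other shifts was not tested. The other 41 of the 66 alternatives stayed within 1.5 times of the reported count or within the counting interval of the reported share. No paired analysis was possible because the results come from no test and each group had 1 library.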

Other observations

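Sequences that missed the rule on a single library differed by which library it was. On 6 DPA aleurone alone 1698 sequences were held back, which together made up 20.05% of the reads of 9 DPA aleurone, with a median of 64.6 RPKM there and 49.4 RPKM in 6 DPA aleurone. Of these 1698, 449 were higher in 6 DPA than in 9 DPA aleurone. On 9 DPA starchy endosperm alone 90 were held back, with medians of 37.5 RPKM in 9 DPA aleurone and 23.2 RPKM in 9 DPA starchy endosperm. These 90 exceeded both tissues of 6 and 14 DPA by the fold of the rule, and lacked that difference between the tissues at 9 DPA. Their median unique share was 8.64%, 18 of them had no unique read in 9 DPA aleurone, and 45.6% had TC identifiers. For the 1698 the median unique share was 49.96%, 8 (0.471%) had no unique read, and 76.3% had TC identifiers. Only 21, 8 and 7 sequences were held back by 14 DPA aleurone, 6 DPA starchy endosperm and 14 DPA starchy endosperm alone.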
